A study of Mus musculus with 7 samples.

Results

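The genes described here are the placental prolactin, pregnancy-specific glycoprotein (Psg) and carcinoembryonic antigen-related cell adhesion molecule (Ceacam) families of the mouse. They were taken as the protein-coding genes of the RefSeq table of GRCm38.p6, the same assembly as mm10, whose symbol is Prl, Psg or Ceacam followed by a digit. This gave 53 of the 21883 protein-coding genes placed on a chromosome: 25 of the prolactin family on chromosome 13, and 13 Psg and 15 Ceacam genes on chromosome 7. Each gene was placed against the 1437 lamin-associated domains (LADs) that the authors deposited, regions of the genome in contact with the meshwork of lamins lining the inside of the nucleus. The study profiled mouse embryonic fibroblasts, labelled iMEF, by CUT&RUN in 7 libraries, of which 2 were for Lamin B1, 2 for IgG, 2 for H3K9me2 (1 with each of 2 antibodies) and 1 for H3K14ac. Its lines were derived independently from a single mouse colony, the labels give no genotype, age or treatment, and wild type is stated nowhere but in the list's name. The list is merged and holds positions alone, so no value below has a replicate error, the read depth is unknown, and no test between conditions was possible. It holds no expression either, so the labelled cell type could not be checked by RNA. None of 6 fibroblast marker genes (Col1a1, Col1a2, Col3a1, Thy1, Pdgfra and Vim) had its midpoint in a LAD, and of 6 trophoblast marker genes 1 did (Tpbpa), against 23.8% of all protein-coding genes, so these counts do not check the cell type.

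These families grew by tandem duplication in rodents and are known for their work in pregnancy. Prolactin-related hormones are secreted by trophoblast giant cells, spongiotrophoblast and decidua and act on the ovary, the mammary gland, maternal vessels and blood cells. Psg proteins are secreted by trophoblast into maternal blood, and Ceacam proteins range from secreted placental forms to membrane receptors of epithelia and leukocytes. The proliferins (the Prl2c genes) are also known outside the placenta, since they were first found as transcripts of growth-stimulated mouse fibroblasts in culture. Genes in LADs are as a rule weakly transcribed.

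The families divided between LADs and gaps by position along the chromosome. By gene midpoint, 19 of the 53 genes (35.8%) lay in a LAD, against 23.8% of all protein-coding genes. The count was 3 of 25 (12%) for the prolactin family, 10 of 13 (76.9%) for Psg and 6 of 15 (40%) for Ceacam. On chromosome 13, 23.9% of protein-coding genes lay in LADs, and on chromosome 7 it was 37.4%, so part of the background differs between the chromosomes. The 19 genes in LADs occupied only 2 domains, 1 with 3 prolactin genes and 1 with 16 Psg and Ceacam genes, and the 34 genes outside occupied 5 gaps. Neighbours within a domain therefore count as 1 placement, and no test was made of these shares. Counting any overlap gave the same 19 genes, against 25.1% of all protein-coding genes. With the whole gene inside a LAD as the rule, 18 genes remained, against 21.8%, and the gene that was lost is Psg16.

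**Figure D1:**
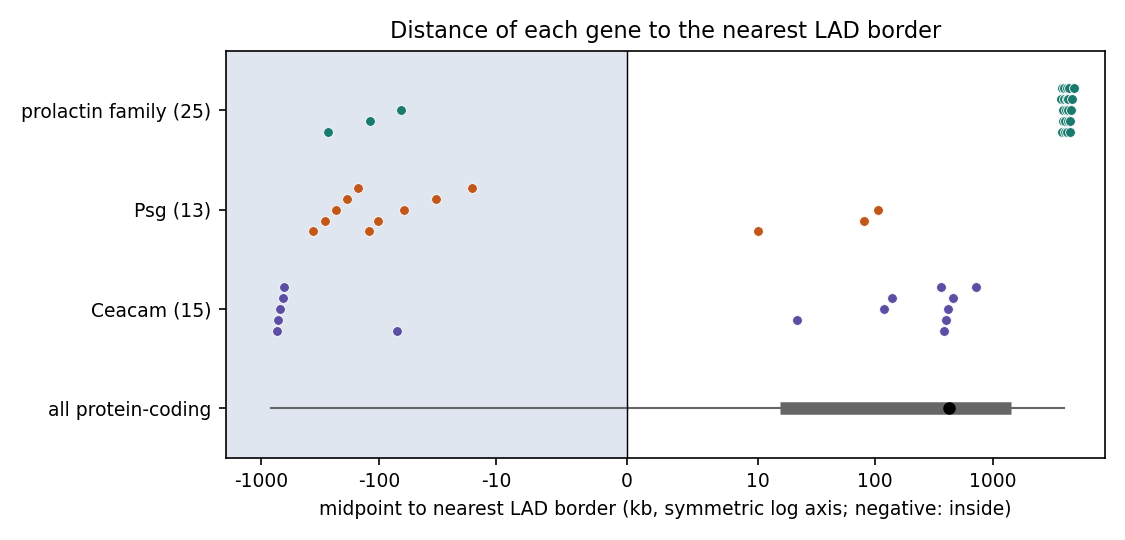
Distance from each gene's midpoint to the nearest LAD border in kb, on a symmetric log axis, with negative values (shaded) inside a LAD and 1 point per gene; for all protein-coding genes the dot is the median, the bar the quartiles and the line the 5th to 95th percentiles. The 22 genes of the main prolactin cluster sit together at 3849 to 4899 kb outside, whereas Psg genes lie on both sides of a border.

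Promoter sequences show how alike some copies are that lie on opposite sides of this division. The RefSeq promoter table of GRCm38.p6 gives 250 bases before and 50 after the annotated start, and it held 44 of the 53 genes. It lacks Prl2c2 and also Prl2c1, a proliferin outside LADs, so proliferins could not be compared with each other across the division. Among prolactin genes in the table, the most alike promoters with 1 start in a LAD and the other outside were those of Prl2c3, a proliferin, and Prl7d1. Prl7d1 is the proliferin-related protein that is known to oppose proliferin in blood vessel growth. They are shown with Prl2c5, the other proliferin in a LAD that the table holds. All are written 5′ to 3′. Capitals mark bases of Prl2c5 and Prl7d1 that differ from Prl2c3, or have no counterpart there, in a global alignment. Bases found only in Prl2c3 are not marked.
Prl2c3: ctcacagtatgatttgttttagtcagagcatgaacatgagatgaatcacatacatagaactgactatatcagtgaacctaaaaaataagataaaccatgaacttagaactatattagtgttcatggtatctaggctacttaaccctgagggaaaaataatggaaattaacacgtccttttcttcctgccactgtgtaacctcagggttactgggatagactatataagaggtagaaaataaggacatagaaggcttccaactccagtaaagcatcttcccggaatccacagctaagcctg
Prl2c5: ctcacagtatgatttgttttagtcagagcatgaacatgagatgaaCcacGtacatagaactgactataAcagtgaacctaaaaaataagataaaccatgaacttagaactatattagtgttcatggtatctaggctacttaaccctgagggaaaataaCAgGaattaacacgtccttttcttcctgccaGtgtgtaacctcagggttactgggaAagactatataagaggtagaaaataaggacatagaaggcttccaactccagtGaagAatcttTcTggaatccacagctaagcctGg
Prl7d1: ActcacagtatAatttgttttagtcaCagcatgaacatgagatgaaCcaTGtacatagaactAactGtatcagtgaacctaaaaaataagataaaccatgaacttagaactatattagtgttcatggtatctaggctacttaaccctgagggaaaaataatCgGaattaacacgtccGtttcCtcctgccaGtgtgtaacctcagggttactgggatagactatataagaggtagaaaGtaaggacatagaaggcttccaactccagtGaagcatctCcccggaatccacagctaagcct

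The Prl2c3 promoter lies on the minus strand at chr13:12800030-12800329 and is inside a LAD. Prl2c5 lies on the plus strand at chr13:13182466-13182765, inside the same LAD, and was 95.35% identical to Prl2c3. Prl7d1 lies on the minus strand at chr13:27716688-27716987, in a gap and 4465 kb from the nearest LAD by its midpoint, and was 94.35% identical to Prl2c3 and 93.4% to Prl2c5. The 38 prolactin pairs with a start on each side set 2 promoters in a LAD against 19 outside. Across them the median identity was 54.65%, and only the pairs of Prl7d1 with Prl2c3 and Prl2c5 reached 80%. How reads from copies this similar were assigned is not given in the sources used here, and its part in the placements was not tested.

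For the Psg family, the closest pair across the division was Psg25, inside a LAD, and Psg17, outside. Psg17 was the only Psg gene outside with a promoter entry, since the table lacks Psg22 and Psg19. Both genes were picked for this display after the identities were known. Capitals mark bases of Psg17 that differ from Psg25 or have no counterpart there, and bases found only in Psg25 are not marked. The alignment had 21 mismatches and 22 columns with a gap.
Psg25: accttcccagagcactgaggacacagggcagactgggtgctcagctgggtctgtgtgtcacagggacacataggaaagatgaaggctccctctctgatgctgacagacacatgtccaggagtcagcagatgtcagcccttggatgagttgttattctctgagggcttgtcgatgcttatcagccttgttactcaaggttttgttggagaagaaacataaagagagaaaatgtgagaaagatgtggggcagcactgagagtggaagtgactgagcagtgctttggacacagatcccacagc
Psg17: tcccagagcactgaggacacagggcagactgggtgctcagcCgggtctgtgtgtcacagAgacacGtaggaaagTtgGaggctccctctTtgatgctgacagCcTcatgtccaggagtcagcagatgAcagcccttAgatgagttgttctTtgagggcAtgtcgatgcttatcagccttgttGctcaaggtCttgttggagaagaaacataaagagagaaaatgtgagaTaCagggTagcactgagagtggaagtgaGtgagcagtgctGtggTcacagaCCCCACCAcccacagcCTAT

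The Psg25 promoter is at chr7:18532178-18532477 and that of Psg17 at chr7:18821542-18821841, both on the minus strand, and they were 86.2% identical. Of the 9 Psg pairs with a start on each side, all of them pairs with Psg17, 4 were at least 80% identical, with a median of 79.05%. Over all 45 Psg pairs the identity was 49.7% to 96.7%, with a median of 76.85%. The Psg20 promoter stood apart, at 49.7% to 53.9% with each of the 9 others, and is named here after its values were seen. Its annotated start, chr7:18685992 on the minus strand, lies inside the gene, which ends at chr7:18686277. The stretch aligned for Psg20 (chr7:18685943-18686242) is therefore wholly within the gene. The part of this offset in its low identities was not tested. The 40 Ceacam pairs across the division were at most 53.7% identical (Ceacam5 and Ceacam2).

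Most prolactin genes stood far from any LAD. The 22 genes from Prl3d1 to Prl5a1 form a cluster of 1.06 Mb (chr13:27094189-28151595) with no other protein-coding gene inside it and 20.8 members per Mb. None of its bases was covered by a LAD. How much of the cluster can be mapped uniquely, and where the assembly has gaps, was not analysed here for this or the other clusters. The cluster begins 3.85 Mb after the end of the preceding LAD and ends 10.9 Mb before the next, within a gap of 15.8 Mb (chr13:23248269-39025718) that ranks first in length among 1416 gaps, whose median length was 240.0 kb. It took up 6.70% of that gap and held 22 of its 148 protein-coding genes. Midpoints of these members were 3.85 to 4.90 Mb from a LAD, with a median of 4.29 Mb. Of all protein-coding genes, 5.49% were at least 3.85 Mb from a LAD, on 15 chromosomes, and those outside LADs had a median of 796.3 kb.

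The placental lactogens open the cluster. Prl3d1, Prl3d2 and Prl3d3 encode forms of placental lactogen I, the giant cell hormone that takes over from pituitary prolactin in early pregnancy, and lay at 3849, 3876 and 3911 kb from the nearest LAD. Prl3b1, placental lactogen II of later pregnancy, lay at 3998 kb. The promoters of Prl3d2 and Prl3d3 were 97.0% identical, the highest value in the family, and Prl3d1 had 87.4% identity with Prl3d2. All of these copies had the same placement.

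Genes known from decidua, the maternal side of the placenta, lay between the trophoblast hormones. Prl8a2, the decidual prolactin-related protein, was at 4102 kb from the nearest LAD and Prl6a1 at 4068 kb. Prl7a1 and Prl7a2, which are known to act on megakaryocytes, were at 4390 and 4415 kb. Prl4a1, known to bind uterine natural killer cells, was at 4772 kb, and Prl5a1, the last gene of the cluster, at 4899 kb. The distances rise along the cluster because each is measured from the same LAD, so they follow gene order and add nothing to it.

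Around the cluster, protein-coding genes were few. Within 1 Mb on either side there were 3 protein-coding genes, none in a LAD. The nearest was Prl, the gene of pituitary prolactin, which ends 29.0 kb before Prl3d1 and lay 3813 kb from a LAD. Hdgfl1 was 287.4 kb before Prl. On the other side, Sox4, a transcription factor gene, began 797.3 kb after Prl5a1. Farther along, the same gap held 16 serpin genes, all of the Serpinb group, another tandem family.

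**Figure D2:**
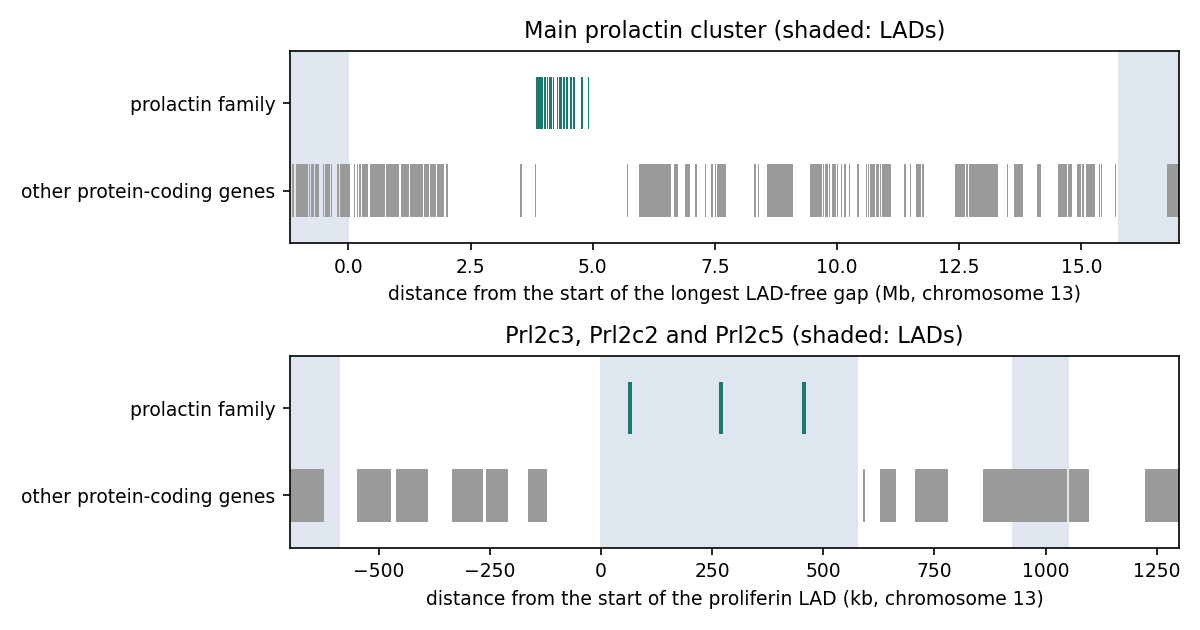
Positions of prolactin family genes (green) and other protein-coding genes (grey) on chromosome 13, with LADs shaded; the upper panel spans the longest gap in Mb from its start and the lower panel the proliferin LAD in kb from its start. The main cluster of 22 genes sits in a stretch with few other genes and no LAD, and Prl2c3, Prl2c2 and Prl2c5 are the only protein-coding genes of their LAD.

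The proliferins were the exception. Prl2c3, Prl2c2 and Prl2c5 lie apart from the main cluster and had a LAD of 575.0 kb (chr13:12730802-13305799) to themselves, since no other protein-coding gene had its midpoint there. Their genes were 9.28, 9.27 and 9.23 kb long and covered to 100%. Prl2c3 was 64.65 kb inside the nearer border, Prl2c5 118.5 kb and Prl2c2 270.0 kb. The gene before them, Ero1b, and the gene after, Gm7040, lay outside. Among the 16 protein-coding genes within 1 Mb on either side, 2 were in a LAD. The fourth member named as a proliferin copy, Prl2c1, belongs to the main cluster and was 4605 kb from a LAD. In this fibroblast list, the 3 family members in a LAD were thus all proliferins, and 1 proliferin, Prl2c1, was not in one. No transcription data were used here, so whether any of them was active in these cells was not tested.

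Psg and Ceacam genes shared a single LAD. It measured 1.62 Mb (chr7:17087574-18712567) and held 19 protein-coding genes, of which 10 were Psg, 6 were Ceacam and the others were Gm5155, Igfl3 and Mill1. With 11.7 protein-coding genes per Mb it was denser than LADs as a whole, at 3.92 per Mb, and close to the 12.3 per Mb of all gaps. The gap before it carried 31.8 and the gap after it 48.2 protein-coding genes per Mb.

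The domain ran from inside Psg16 to just short of Psg22. Psg16 (chr7:17074013-17133450), a member with transcripts known from brain, spans 59.4 kb and was the only gene of the 3 families cut by a border, with 45.9 kb inside the LAD and 13.6 kb outside. Hif3a ended 25.15 kb before the border. Next inside were Ceacam3 at 70.0 kb and Psg29 at 122.0 kb from the border. Farther in, Ceacam5, Ceacam14, Ceacam11, Ceacam13 and Ceacam12 lay 640.6 to 737.2 kb from the nearer border, the deepest of all members, and Ceacam11 was the deepest. Ceacam11 to Ceacam14 belong to a group of secreted forms known from rodent placenta.

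At its other end the LAD divided the main Psg cluster. The 11 genes from Psg18 to Psg17 (chr7:18345744-18821591) were covered to 77.1%. From the deepest outwards, Psg18 was 362.2 kb inside, Psg28 285.3 kb, Psg26 233.2 kb, Psg25 186.6 kb, Psg27 150.7 kb, Psg23 101.1 kb, Psg21 60.9 kb and Psg20 32.4 kb. The first 8 genes of the cluster were therefore inside and the last 3 outside. Psg22, a Psg gene known from early giant cells, began 5.48 kb past the border, and its midpoint was 10.2 kb outside. Psg19 was 81.3 kb outside, and Psg17, whose product is known to bind the tetraspanin CD9, was 105.2 kb outside. Lengths of LADs fall within 125 bp of multiples of 2.5 kb in 100% of cases, so 5.48 kb is little more than 2 of the steps at which borders are drawn. The nearest genes beyond the cluster, Mill2 and Pglyrp1, also lay outside.

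**Figure D3:**
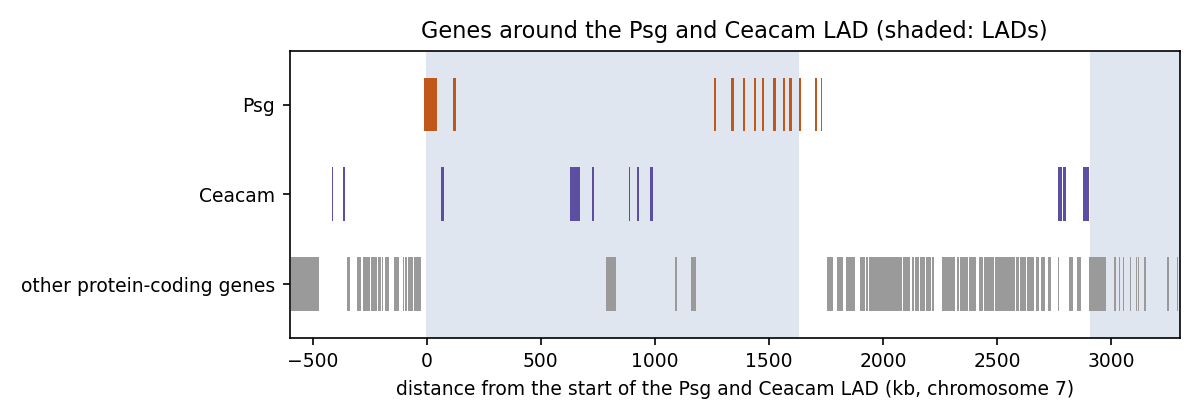
Positions of Psg (orange), Ceacam (purple) and other protein-coding genes (grey) on chromosome 7, in kb from the start of their shared LAD, with LADs shaded. The LAD holds 10 Psg and 6 Ceacam genes among 3 others, its end divides the Psg cluster, and Ceacam20 ends just before the next LAD.

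Ceacam genes outside the shared LAD lay in 4 gaps. Ceacam15 and Ceacam9, the latter a secreted form known from placenta, were in the gap before it, at 414.1 and 363.6 kb from the nearest LAD. In the gap after it were Ceacam16, a protein of the tectorial membrane of the inner ear, at 138.3 kb, Ceacam19 at 118.2 kb, and Ceacam20, known from intestinal microvilli, at 21.8 kb. Ceacam20 ended 8.95 kb before the next LAD (chr7:20000064-24055051), and its neighbour Nlrp9b had its midpoint in that LAD. Ceacam1, the inhibitory adhesion receptor of epithelia and leukocytes, lay 457.9 kb from a LAD. Its close relative Ceacam2 lay at 399.5 kb, and Ceacam10 at 725.9 kb, the farthest of the family. Ceacam18, alone on chr7:43634617-43649295, was at 389.5 kb.

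Of the Ceacam genes described above as known from placenta, Ceacam11 to Ceacam14 were in the LAD and Ceacam9 was not, and no test was made of placement by known use. The 6 Ceacam genes in the LAD were interleaved with Psg genes or lay between them. The 9 outside were all beyond the ends of the Psg row, with 31.8 to 48.2 protein-coding genes per Mb in their gaps.

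Distances to a border were also counted by 2 limits. Within 25 kb were 3 of the 53 genes (5.66%: Psg16, Psg22 and Ceacam20), against 3.71% of all protein-coding genes, and within 50 kb 4 of 53 (7.55%), against 7.86%. All 4 were among the 28 Psg and Ceacam genes, which makes 10.7% and 14.3% of these, against 3.94% and 8.42% of the protein-coding genes of chromosome 7. The 3 genes lie at 3 separate borders, and the difference from all genes was not tested.

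Promoters of the members were poor in CpG on both sides of the division. The 44 promoters held 0 to 5 CpG dinucleotides each, with a median of 2, against a median of 13 over 17491 protein-coding genes, of which 32.7% had 5 or fewer. By annotated start, 16 of the 44 (36.4%) lay in a LAD, against 23.9% of genes with a promoter entry, and the call was the same as by midpoint for all 44. Over all genes, promoters in LADs had a median of 2 CpG and those outside 17. The 19 prolactin promoters outside LADs had a median of 3 and the 8 Ceacam promoters outside also 3, so they were closer to the median of promoters in LADs. GC content had a median of 40.7% for the prolactin family, 49.3% for Psg and 51.0% for Ceacam, against 56.3% over all genes.

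**Figure D4:**
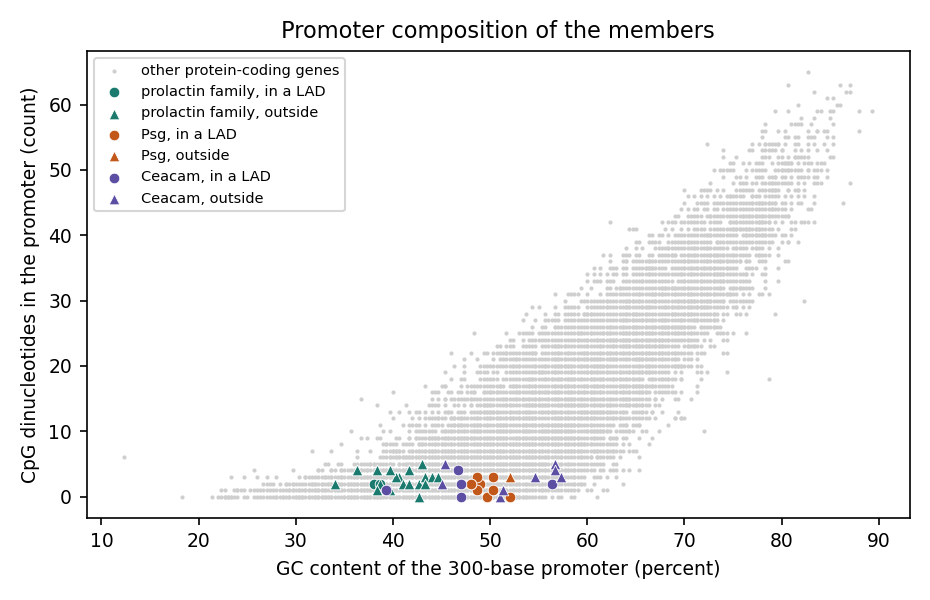
GC content in percent against the number of CpG dinucleotides in the 300-base promoter, with 1 point per gene, grey for other protein-coding genes, circles for members whose start lies in a LAD and triangles for those outside. All members have 5 CpG or fewer, whichever side of a LAD border they are on.

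Short motifs were counted on both strands of the promoters. NGATAA, the core bound by GATA factors, some of which activate placental lactogen I in giant cells, was present in 13 of 21 prolactin promoters (61.9%), 9 of 10 Psg promoters (90%) and 7 of 13 Ceacam promoters (53.8%), against 22.9% of all promoters and 37.2% of those with a start in a LAD. Each of the 5 promoters printed above has 1 match. By side, it was in 2 of 2 prolactin promoters in a LAD and 11 of 19 outside, in 8 of 9 Psg promoters in the LAD and the 1 outside, and in 5 of 5 Ceacam promoters in the LAD and 2 of 8 outside (25%), against 18.4% of all promoters outside LADs. These differences by side were not tested. TGANTCA was in 9 of 21 prolactin promoters (42.9%), 3 of 10 Psg promoters (30%) and 1 of 13 Ceacam promoters (7.69%), against 7.03% overall and 11.4% of promoters with a start in a LAD. These runs include TGACTCA, the AP-1 motif, which by itself was in 6 of 21 prolactin promoters (28.6%), 2 of 10 Psg promoters (20%) and 0 of 13 Ceacam promoters, against 4.56% overall and 6.12% in LADs. The run in the Prl2c3 promoter printed above is not this motif. TATAAA was in 4 of 21 prolactin promoters (19.0%), 0 of 10 Psg promoters and 4 of 13 Ceacam promoters (30.8%), against 13.3% overall and 25.55% in LADs. Promoters within a family share ancestry, so these shares are not independent observations, and a match is a run of letters, not a site shown to be bound.

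Partners and targets of these hormones were placed in the same way. In the list of prolactin signalling genes, 1 of 14 (7.14%) lay in a LAD, against 23.8% of all protein-coding genes. That gene was Prlr, the prolactin receptor, which was covered to 100% with its midpoint 132.9 kb inside a LAD (chr15:9188653-10396149). Jak2, Stat5a and Stat5b, which carry the receptor's signal, lay 971.0, 7042 and 6989 kb outside. Gh, the growth hormone gene and a relative of prolactin, was 2168 kb outside. Of the milk genes listed as prolactin targets, 6 of 9 (66.7%) were in LADs, against the same 23.8%, but these were 2 placements. Csn1s1, Csn1s2a, Csn1s2b, Csn2 and Csn3 shared 1 domain (chr5:86869538-88534531), and Glycam1 lay 53.1 kb inside another. Wap, Lalba and Btn1a1 were outside.

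A second placental gene cluster on chromosome 13 was placed differently from the main prolactin cluster. Of 18 other placental genes, 10 (55.6%) were in a LAD, against 23.8% of all protein-coding genes, and all 10 lay in 1 domain (chr13:60628150-62535643). They were Tpbpa and Tpbpb, spongiotrophoblast genes, and the placental cathepsins Ctsj, Ctsm, Ctsq, Ctsr, Cts3, Cts6, Cts7 and Cts8, at 274.9 to 939.3 kb from the nearer border. The other 8, among them Syna and Synb of the syncytiotrophoblast, had their midpoints outside, though 20.49% of Pappa2 was covered. None of 14 trophoblast regulators lay in a LAD by midpoint, the nearest being Eomes with its midpoint less than 1 kb outside and 38.05% of the gene covered. Partners of Psg and Ceacam proteins, such as Cd9, Itgb3, Tgfb1 and Ptpn6, were outside by midpoint in 10 of 10 cases. Among them Cd36, with its midpoint 16.93 kb outside, had 34.22% of the gene covered. The counts of these lists were not tested against the 23.8%.

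**Figure D5:**
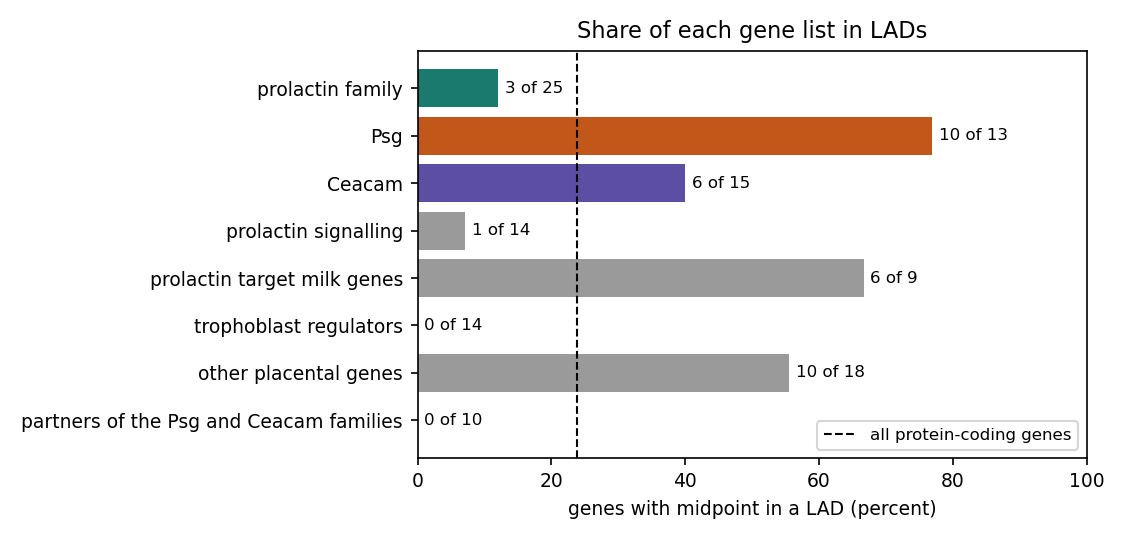
Percent of genes with their midpoint in a LAD for the 3 families (coloured) and 5 lists of related genes (grey), with counts beside the bars and the share of all protein-coding genes as a dashed line. Psg, milk and other placental genes lie above the line and the prolactin family, with 3 of 25, below it; Ceacam, at 40%, is above the line but near the 37.4% of its own chromosome 7.

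Other tandem families gave a range of shares by the same rule. Of 1110 olfactory receptor genes 88.4% had their midpoint in a LAD, and of 353 vomeronasal receptor genes 91.8%, both above the 76.9% of Psg genes. Serpin genes, at 57.1% of 63, came between Psg and Ceacam. Among these 6 families, the prolactin family had the lowest share. These are descriptions of clustered genes, and the differences between families were not tested.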

How the data were processed

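CUT&RUN libraries of mouse embryonic fibroblasts were made for Lamin B1, H3K9me2, H3K14ac and IgG, per the labels' protocols. The data used were the authors' deposited list of LADs, which gives where each domain starts and ends. The deposited score column held 0 in every line and was not used. Bowtie2 and the build mm10 are named in the submitters' processing notes; the domain caller, its threshold and the use of IgG or spike-in DNA are not given in the sources used here. Both columns were read as pooled Lamin B1, taken from the word merged in the list's name. Read depth per library is unknown.

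Genes were placed by the midpoint of their RefSeq coordinates (Python 3.11.15, pandas 2.3.3). All positions are counted from 1. Members of a family within 500 kb of each other, between gene ends, were joined into clusters. Where a gene had several promoter entries, the outermost start was used. Promoters were aligned globally with Biopython 1.88 (match 1, mismatch -1, gap opening -2, gap extension -0.5), and identity is per alignment column, gaps included. Placement was tested on simulated data. Named genes are the first and last of each cluster, those nearest a border, those whose call depends on the rule, cluster neighbours, listed pathway genes in LADs, and Prl, Prlr and Gh. Outside this rule, further members, listed pathway and marker genes outside LADs (such as Jak2, Wap, Eomes and Cd9), the non-member genes of the Psg LAD and Pglyrp1 were named as examples, after their values were seen. The members and lists were chosen with earlier results of these data known. Alternatives varied the part of the gene, the LADs used, joining and border positions. Counts of TGACTCA and the chromosome 7 comparison for border distance were added after seeing the data. Protein identities were planned and not analysed here.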

Additional observations from a re-analysis of the deposited data

How the results depend on the processing

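Over 11 alternatives, the counts of genes in LADs (3 prolactin, 10 Psg, 6 Ceacam and 19 in all) stayed within 1.5 times the reported value in 44 of 44 cases. The cases are not separate, because the count of 19 is made up of the family counts. Length limits of 100 and 500 kb could remove no member, since the LADs that hold members measured 575.0 kb and 1.625 Mb. The calls that changed were those of Psg16, which left with the low-coordinate end, the whole gene or LADs narrowed by 25 kb, and of Psg22 and Ceacam20, which entered with LADs widened by 25 kb. Widening and narrowing were chosen after seeing the data. The share of all protein-coding genes in LADs (23.8%, exact 95% binomial interval 23.2% to 24.4%, which covers counting error only) moved to 25.1% with any overlap, 21.8% with whole genes, 20.7% with LADs of at least 500 kb, 24.55% and 27.3% with LADs joined across at most 100 and 250 kb, 24.6% and 25.8% with LADs widened by 10 and 25 kb, and 22.1% with LADs narrowed by 25 kb, each by construction of the alternative. The distance of 3846 kb from the main prolactin cluster to a LAD did not change with LADs of at least 100 or 500 kb. The distance of the main Psg cluster stayed at 0 kb with both, a value that any overlap gives. Its covered share was not recomputed with these limits. Joining members across 250 or 1000 kb gave 11 or 8 clusters in place of 10.

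Covered shares describe the members' own extent, since flanks of 250 and 1000 kb on each side moved them: from 100% to 63.8% and 43.6% for Prl2c3 to Prl2c5, from 15.7% to 32.95% and 49.6% for Ceacam15 to Ceacam3, from 0% to 37.7% and 46.3% for Ceacam16 to Ceacam20, from 90.4% to 58.9% and 52.7% for Psg16 to Psg29, and from 77.1% to 63.2% and 55.2% for Psg18 to Psg17. With 1000 kb, Ceacam5 to Ceacam12 went from 100% to 68.7% and Ceacam1 to Ceacam2 from 0% to 29.5%. The main prolactin cluster stayed at 0% with both. No paired analysis was possible because the list is merged and holds no values per replicate, which also left no way to omit either Lamin B1 replicate.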
